A study of Gallus gallus with 6 samples.

Results

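NELL2, SELENOP1, HHIPL2, C11orf96, FAM189A2, BDP1 and LRRN4 were bright in the granulosa, the cell layer around the yolk-filled oocyte of the hen. They were also bright in tissue cut out together with the germinal disc. They were chosen from the values themselves, as genes with a high level in both kinds of F1 follicle tissue and a level near background in the ovulated germinal disc region. They carry 17 of the 38535 probe sets on the array, and stand for 7 of the 13009 genes that have a probe set with 1 gene symbol. The study hybridized 6 Affymetrix chicken arrays, 2 for each of 3 groups. F1 GCs are granulosa cells taken next to the germinal disc of the largest follicle before ovulation (F1), F1 GDR is the germinal disc region of that follicle, and Ov GDR is the germinal disc region of oocytes that had just been ovulated. All groups came from untreated ISA Brown laying hens aged 60 to 70 weeks, and each array carried a pool of tissue from 25 hens. The F1 GDR held the germinal disc and the granulosa cells that lie on it, which could not be removed completely or counted, whereas the Ov GDR had none. In such bulk tissue fewer granulosa cells and less RNA per granulosa cell cannot be told apart. Transcripts of the granulosa cells and of the germinal disc itself cannot be told apart in F1 GDR either. Ov GDR differs from F1 GDR in stage as well as in granulosa cells. Within a group the labels tell the arrays apart by a suffix A alone, and they are called here the first array and array A.

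In the large yolky oocyte of birds the living cytoplasm with the nucleus lies in a small disc at the surface, the germinal disc, from which the embryo develops after fertilization. Granulosa cells of the F1 follicle are differentiated cells that make progesterone and, in birds, also deposit part of the egg coat. The genes described here encode secreted proteins (NELL2, SELENOP1, HHIPL2), membrane proteins (FAM189A2, LRRN4), a transcription factor of the nucleus (BDP1) and a protein whose role is not settled (C11orf96).

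The values are log2 signals that the authors obtained with gcrma, which corrects each probe for background by its sequence and gives all arrays one distribution. Background was set on each array at the highest of 23 control probe sets for foreign sequences, between 2.76 and 3.27. The arrays of Ov GDR differed more from each other (SD over probe sets 0.82) than those of F1 GDR (0.43) and F1 GCs (0.30). Control probe sets at the opposite ends of the ACTB transcript differed by 5.02 and 1.53 on the log2 scale on the first Ov GDR array and on Ov GDR A, by 2.65 and 3.57 in F1 GDR and by 3.23 and 2.46 in F1 GCs, so the gap was both largest and smallest within Ov GDR. Bacterial bioB transcripts, a hybridization control, had mean log2 values of 9.46 and 9.18 in Ov GDR, 8.12 and 8.22 in F1 GDR and 7.32 and 7.76 in F1 GCs. The labels give 7 and 14 µg of total RNA for F1 GCs and between 16.5 and 20 µg for the other groups.

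Of the secreted members, NELL2 and SELENOP1 had the smallest gaps of the 7 genes between both F1 tissues. NELL2, a glycoprotein with EGF-like repeats that was first described in the chicken and guides growing axons, read 3.16 on the first Ov GDR array and 4.02 on Ov GDR A, 11.37 and 11.65 in F1 GDR, and 12.21 and 12.08 in F1 GCs. Both F1 groups lay far above the Ov GDR arrays, and both F1 GCs arrays lay above both F1 GDR arrays. F1 GDR stood 243-fold and F1 GCs 377-fold over Ov GDR, and since the genes were chosen for this contrast, these folds are a description without a test. SELENOP1, which carries selenium in plasma, read 3.01 and 3.32 in Ov GDR, 11.38 and 11.23 in F1 GDR, and 11.82 and 11.12 in F1 GCs by its brightest probe set. Here the F1 groups overlapped, because F1 GCs A lay below both F1 GDR arrays. HHIPL2, a relative of the protein HHIP that binds Hedgehog ligands, read 2.63 and 2.30 in Ov GDR, 10.99 and 9.83 in F1 GDR, and 11.68 and 11.49 in F1 GCs. Both Ov GDR arrays were at background, so that the HHIPL2 level was at least 154-fold higher (F1 GDR) and at least 348-fold higher (F1 GCs), measured against the background of the Ov GDR arrays.

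The first and A arrays of F1 GDR differed for several of the other members. C11orf96, named after the place of its human counterpart, read 3.82 and 2.42 in Ov GDR, 11.76 and 11.02 in F1 GDR, and 12.26 and 12.34 in F1 GCs. F1 GDR stood 307-fold and F1 GCs 579-fold over Ov GDR. These folds depended on the Ov GDR arrays, with 189 and 356 without Ov GDR A. Without the first Ov GDR array only array A was left, where C11orf96 was at background, and the bounds were at least 332-fold and at least 626-fold. BDP1, a subunit of the factor TFIIIB that brings RNA polymerase III to its promoters, read 2.44 and 2.40 in Ov GDR, 10.43 and 9.63 in F1 GDR, and 11.50 and 11.59 in F1 GCs by its brightest probe set. By the brightest probe sets, array A of F1 GDR was lower than the first for C11orf96, BDP1 and HHIPL2. It was also lower, by less, for SELENOP1, FAM189A2 and LRRN4, and higher only for NELL2. Since BDP1 was at background in Ov GDR, the bounds were at least 118-fold (F1 GDR) and at least 339-fold (F1 GCs).

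By the brightest probe sets, the spread within groups, taken over all groups, was smallest for the membrane proteins. This did not hold for a second probe set of FAM189A2, described below. FAM189A2, whose human counterpart activates the ubiquitin ligase ITCH on endosomes, read 3.31 and 3.65 in Ov GDR, 11.54 and 11.25 in F1 GDR, and 12.89 and 12.93 in F1 GCs, 241-fold (F1 GDR) and 687-fold (F1 GCs) over Ov GDR. LRRN4, a leucine-rich repeat protein known from the mouse brain, read 2.82 and 2.61 in Ov GDR, 9.28 and 9.19 in F1 GDR, and 11.20 and 11.11 in F1 GCs. For both genes the groups F1 GDR and F1 GCs were clearly apart, with each array close to its partner. Over the Ov GDR background, the LRRN4 level was at least 68.3-fold higher (F1 GDR) and at least 258-fold higher (F1 GCs). On Ov GDR A, which had the smallest gap between the ends of ACTB, the brightest probe sets of the 7 genes read between 2.30 and 4.02. On the first Ov GDR array they read between 2.44 and 3.82. The paper reports that ribosomal RNA of the germinal disc region appeared degraded between ovulation and oviposition. Its profiles of labelled cDNA were nearly the same for F1 GDR and Ov GDR. Low values on both arrays follow from the choice of genes, and the part of RNA quality in them was not tested.

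**Figure D1:**
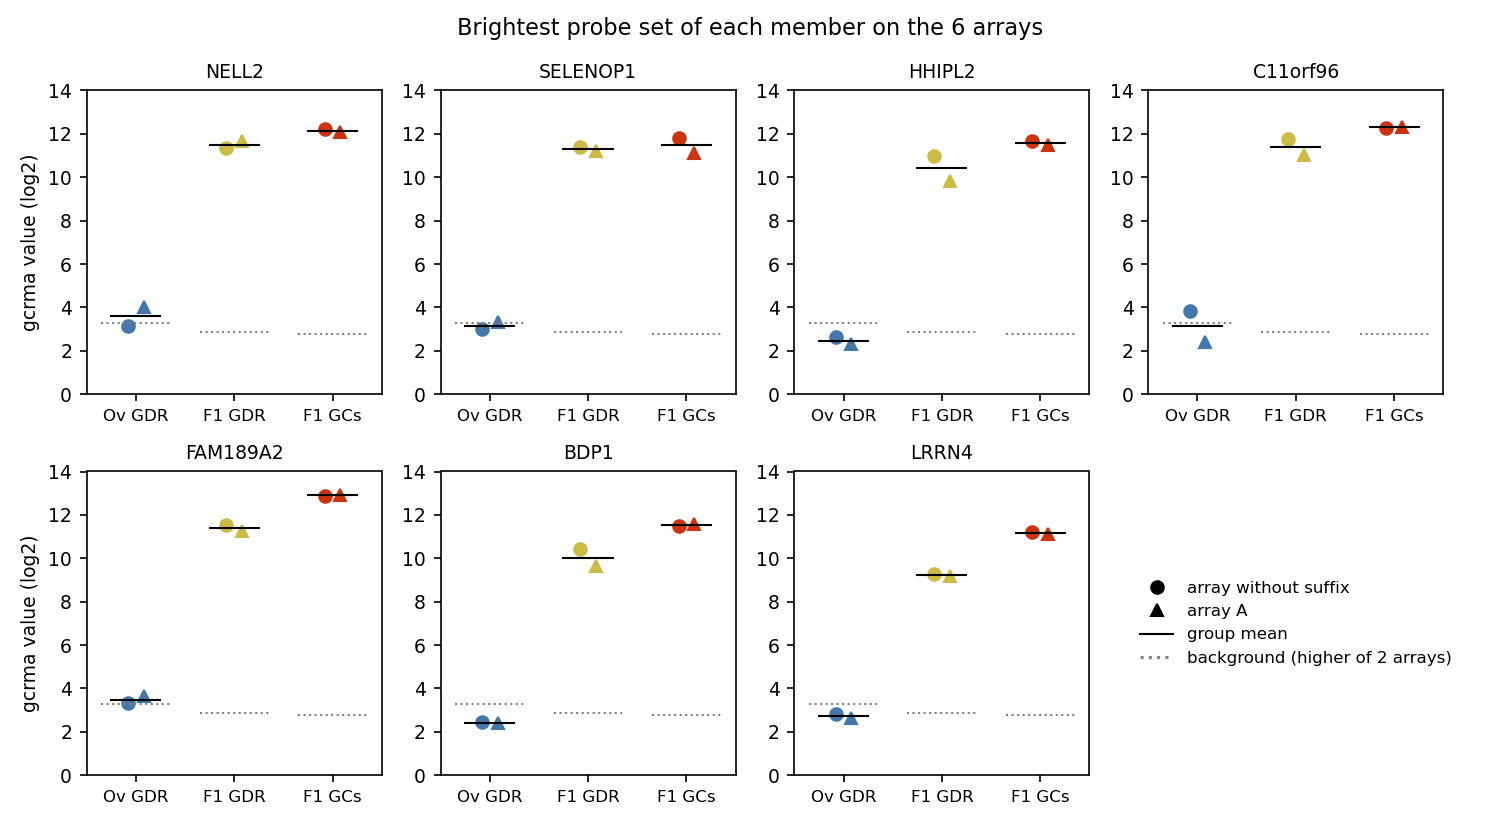
Log2 gcrma value of the brightest probe set of each of the 7 genes on the first array (circle) and array A (triangle) of Ov GDR, F1 GDR and F1 GCs, with group means as black lines and the higher background of each group's arrays as a dotted line. The F1 arrays sit between 9.19 and 12.93 and the Ov GDR arrays between 2.30 and 4.02, and LRRN4 and FAM189A2 show the clearest step from F1 GDR to F1 GCs.

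The rule that chose the genes does not name the difference between F1 GDR and F1 GCs, but the difference is not free of that choice. A high level in both groups leaves out genes with a very large difference. Of 39 probe sets with such levels, described below, only 1 had a higher mean in F1 GDR. The difference compares the level in tissue cut with the germinal disc with that in granulosa cells. The part of the germinal disc itself in the F1 GDR level was not tested. Each gene is given here by its brightest probe set. The level in F1 GDR, as a percent of that in F1 GCs on the linear scale, was 89.1% for SELENOP1, 64.3% for NELL2, 53.0% for C11orf96, 44.3% for HHIPL2, 35% for FAM189A2, 34.9% for BDP1 and 26.5% for LRRN4. For LRRN4 the F1 GDR mean was lower, with a log2 difference of -1.92 (limma SE 0.24 and adjusted p = 0.0315), with 27.3% and 25.6% of the F1 GCs mean on the 2 F1 GDR arrays. FAM189A2 was lower by -1.51 (SE 0.21, adjusted p = 0.0343), with 38.7% and 31.7%. The difference of BDP1 was nearly the same size, -1.52, but with a larger error (SE 0.34, adjusted p = 0.0870), and its 2 arrays stood at 46.1% and 26.5%. When probe sets with group means all under 4 were left out, the adjusted p of BDP1 was 0.0236. With suffix A as a replicate block, or by a t-test on each probe set's own variance, 0 of the 17 probe sets were called.

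The other 4 genes did not pass the test, which does not show that they were equal in both tissues. The 95% interval of the F1 GDR level reached from 50.5% to 157% of the F1 GCs level for SELENOP1, from 34.9% to 119% for NELL2, from 19.7% to 143% for C11orf96 and from 19.6% to 100.4% for HHIPL2. A marked reduction and no reduction were thus both within the error of this fit for these genes. The wide interval of HHIPL2 went with its F1 GDR arrays, which stood at 66.3% and 29.7% of the F1 GCs mean. Those of C11orf96 stood at 68.4% and 41.1%. The fit shares its error over all 3 groups, so the spread of Ov GDR enters these intervals too. For C11orf96 the SD was 0.99 (Ov GDR), 0.52 (F1 GDR) and 0.05 (F1 GCs), and for NELL2 0.61, 0.20 and 0.09. With limma on only the 4 F1 arrays, the adjusted p was 0.0635 for NELL2 and 0.160 for C11orf96. It was 0.239 for HHIPL2 and 0.733 for SELENOP1. Neighbours in this order, from SELENOP1 to LRRN4, had overlapping intervals. By the brightest probe sets the highest and the lowest gene did not overlap, since the interval of LRRN4 ended at 40.9%. Some dimmer probe sets of SELENOP1 did overlap it, with intervals from 6.88% to 65.1% and from 1.89% to 58.4%.

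Over all 17 probe sets, 5 were called higher in F1 GCs, against 3.09% of all 38439 probe sets tested, and 0 were called higher in F1 GDR, against 2.10%. The calls were LRRN4, both probe sets of FAM189A2 and 2 of BDP1. Both F1 GCs arrays lay above both F1 GDR arrays for 12 of the 17, compared with 21.1% of all probe sets. The median log2 difference was -1.17 over the brightest probe sets of the 7 genes and 0.01 over all probe sets. Between 46.9% and 51.4% of all probe sets exceeded background on the F1 arrays. Since most probe sets with levels like those of the members were lower in F1 GDR, these counts and medians partly follow from the choice. With the suffix A as a replicate block 0 of the 17 were called, and also 0 by an unpaired t-test on each probe set's own variance. That t-test does not share variance between probe sets, as the test of the methods does. The variance mixture rebuilt from the methods called 8, with Benjamini-Hochberg adjusted p-values. The paper used the stricter Bonferroni correction, so this is not the count that its own procedure would give. The smallest p that an exact permutation test of 2 arrays against 2 can give is 0.333.

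**Figure D2:**
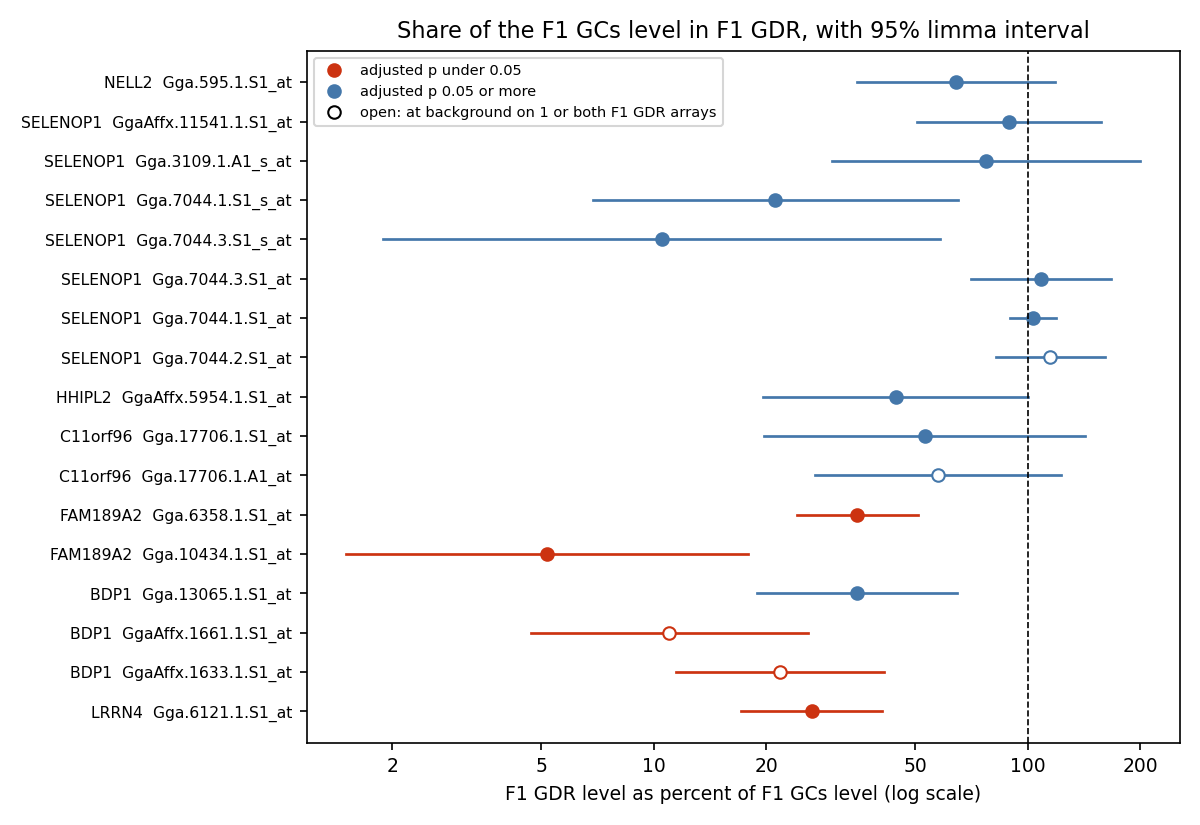
Level in F1 GDR as a percent of the level in F1 GCs (log axis) for all 17 probe sets, with the 95% interval of the limma fit over 6 arrays, red where the adjusted p is under 0.05 and open where at least 1 F1 GDR array is at background. The brightest probe sets run from 26.5% for LRRN4 to 89.1% for SELENOP1, while 5 dimmer probe sets of FAM189A2, BDP1 and SELENOP1 lie at 5.19% to 21.8%.

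The size of the difference depended on the probe set within a gene. FAM189A2 had a second probe set that read 2.60 and 2.29 in Ov GDR, 6.41 and 4.64 in F1 GDR, and 9.44 and 10.15 in F1 GCs. By this one the F1 GDR level was 5.19% of the F1 GCs level (95% interval from 1.51% to 17.9%, adjusted p = 0.0443), against 35% (from 24.1% to 50.9%) by the brighter one. The intervals of these probe sets did not overlap, although both are annotated to the same gene. Both F1 GDR arrays contributed, with 9.58% and 2.81% of the F1 GCs mean.

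BDP1 showed the same arrangement. Its dimmer probe sets read 3.56 and 2.78, and 3.52 and 2.54, on the F1 GDR arrays, where array A was at background, and between 5.13 and 6.79 in F1 GCs. Their F1 GDR level was 11% (adjusted p = 0.0389) and 21.8% (adjusted p = 0.0444) of the F1 GCs level. By these probe sets BDP1 would not have counted as bright in F1 GDR. One of these dimmer probe sets carries an Entrez ID that is not in the RefSeq table used here, while the IDs of the other 16 probe sets match their symbol.

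SELENOP1 was represented by 7 probe sets that fell into distinct kinds. A second bright one read 9.50 and 9.21 in F1 GDR and 10.25 and 9.19 in F1 GCs, with an F1 GDR level of 77.4% (from 30.0% to 199.7%), close to the 89.1% of the brightest. In both bright probe sets F1 GCs A was the lower F1 GCs array. The second bright probe set carries the suffix for probes shared between transcripts, as does another pair. This pair read 6.09 and 4.46, and 5.41 and 3.53, in F1 GDR, and between 7.18 and 8.04 in F1 GCs. Their F1 GDR levels were 21.2% (adjusted p = 0.141) and 10.5% (adjusted p = 0.159), neither past the test, with intervals that ended at 65.1% and 58.4%. The first F1 GDR array alone gave 37.2% and 20.1%, and F1 GDR A alone 12.0% and 5.48%. The remaining 3 stayed between 2.62 and 3.79 on every array and thus showed no granulosa signal, and 1 of them did not exceed background on either F1 GCs array. C11orf96 also had a dim second probe set, at 3.91 and 2.74 in F1 GDR and at 3.96 and 4.27 in F1 GCs. Its F1 GDR level was 57.7% of the F1 GCs level, but 86.6% without F1 GDR A, which was at background, and 38.4% without the first F1 GDR array.

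**Figure D3:**
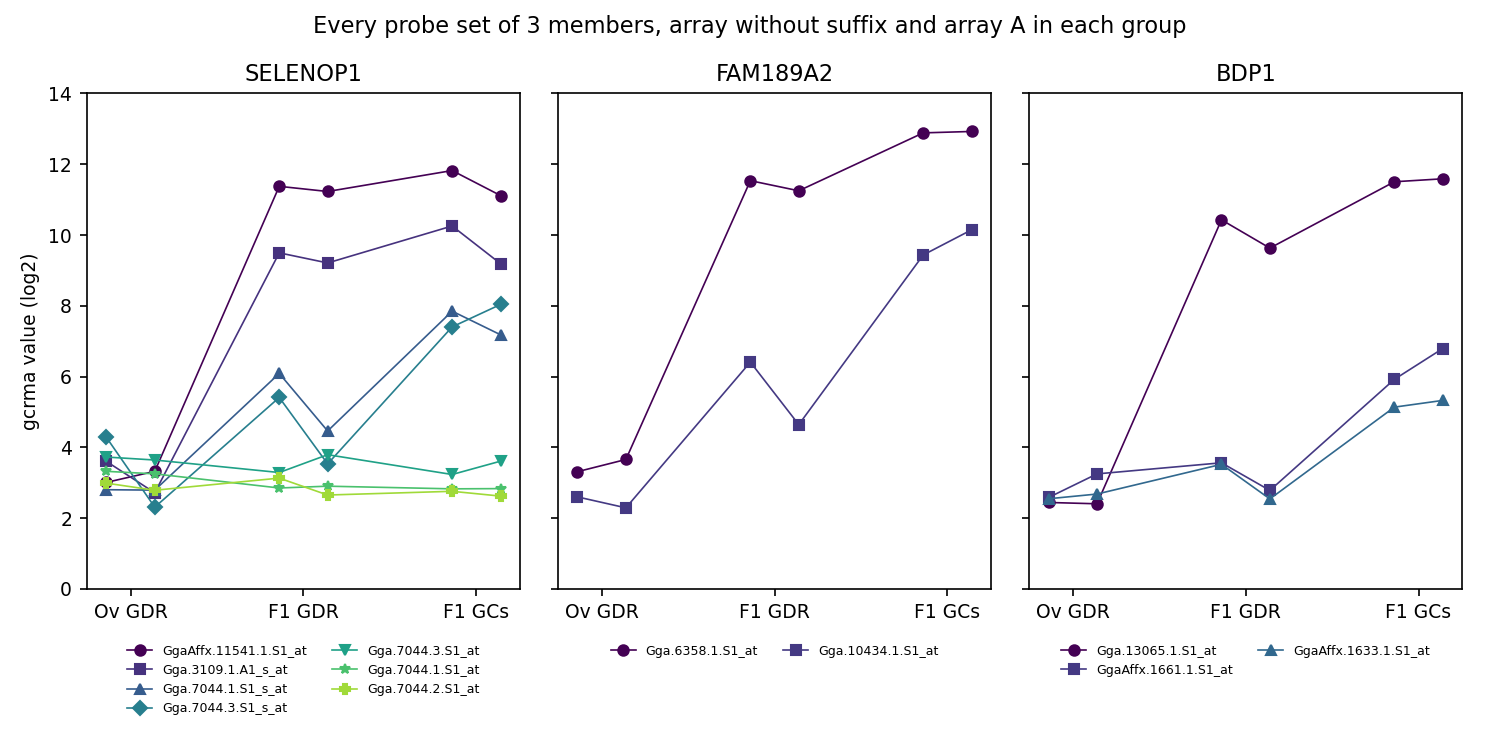
Log2 gcrma values of every probe set of SELENOP1, FAM189A2 and BDP1 on the 6 arrays, the first array left of array A in each group, with lines joining the values of a probe set. The bright probe sets reach 9.21 or more in F1 GDR, whereas the dimmer ones of the same genes stand between 2.54 and 6.41 there and lie higher in F1 GCs, apart from 3 of SELENOP1 that stay between 2.62 and 3.79.

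Genes with the most similar profile were sought over the 6 arrays, each probe set taken relative to its own F1 GCs mean and compared by the root mean square difference in log2 with the brightest probe set of the other 13008 genes. The Ov GDR arrays are part of the profile, and the members were chosen for low values there. Genes with a like step from Ov GDR to both F1 groups thus come out near, whatever their function. The nearest to NELL2 was SELENOP1 (0.41), and NELL2 was in turn the nearest to SELENOP1. HHIPL2 and C11orf96 were nearest to HSD3B1, an enzyme of progesterone synthesis, at 0.19 and 0.36. BDP1 was nearest to CYP11A1, the enzyme that starts steroid synthesis from cholesterol (0.17), and FAM189A2 to PGRMC1, a membrane protein of progesterone signalling (0.20). LRRN4 was the least matched, with INF2, a formin that shapes actin filaments, at 0.47 and CYP11A1 at 0.47. The second nearest genes were FN1 (NELL2), ID2 (SELENOP1), BDP1 (HHIPL2), HHIPL2 (C11orf96), FDX1B (FAM189A2) and HSD3B1 (BDP1). Between members the profiles ranged from 0.25 for HHIPL2 and BDP1 to 1.04 for SELENOP1 and LRRN4.

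The members were also placed among all probe sets with a mean log2 under 4 in Ov GDR and of at least 9 in both F1 groups, limits that were set after the values had been seen and that serve only to describe. There were 39 such probe sets, 31 of them with 1 gene symbol, and 8 belonged to the members. The median F1 GDR level of the 39 was 42.1% of the F1 GCs level (quartiles 33.6% and 50.5%), from 19.8% for INF2 to 138% for ID2, which blocks transcription factors of the helix-loop-helix type. ID2 was the only 1 of the 39 with a higher mean in F1 GDR. Among the 31, LRRN4 was second from the low end, BDP1 and FAM189A2 stood at ranks 10 and 11, and NELL2 and both bright probe sets of SELENOP1 at ranks 27, 29 and 30. SELENOP1 and NELL2 were thus near the top of this range and LRRN4 near its bottom, with the steroidogenic genes CYP11A1 (34.9%), HSD3B1 (41.3% and 47.6%) and FDX1B (44.9%) between them. RLN3, a relaxin family hormone of the same granulosa cells, fell outside these limits with an F1 GDR level of 1.48% of the F1 GCs level (log2 difference -6.08, adjusted p = 0.0189).

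**Figure D4:**
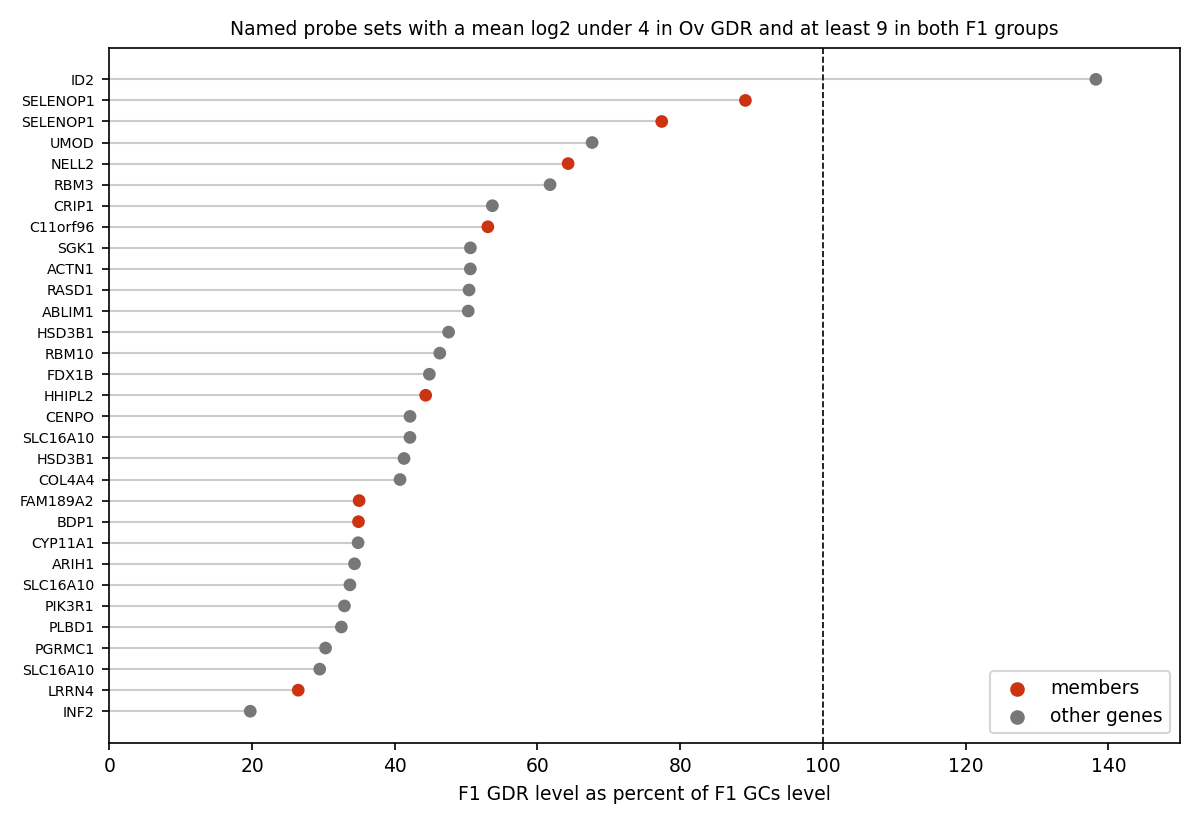
Level in F1 GDR as a percent of the level in F1 GCs for the 31 named probe sets with a mean log2 under 4 in Ov GDR and at least 9 in both F1 groups, the 8 probe sets of the members in red. They spread over the range, from 26.5% for LRRN4 to 89.1% for SELENOP1, within limits of 19.8% and 138% for the 31.

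Against Ov GDR, the genes that work with SELENOP1 had more calls than the other lists of relatives. Selenoproteins carry selenocysteine, which is inserted with the help of dedicated factors, and SELENOP1 brings selenium to tissues, where mammals take it up through the receptors LRP8 and LRP2. Of 31 measured genes of selenium transport and selenoproteins, 11 were above and 4 below their Ov GDR level in F1 GCs (8.54% and 6.51% of all probe sets), and 7 above and 0 below it in F1 GDR (1.63% and 0.234%). Of the 4 lower ones, GPX1, a glutathione peroxidase of the cytosol, had means of 10.57 in Ov GDR and 9.73 in F1 GCs (log2 difference -0.84, adjusted p = 0.0172), and TXNRD3, a thioredoxin reductase, of 9.46 and 7.87 (-1.59, adjusted p = 0.0175). The others, LRP2 and DIO1, read at most 3.52 on every array, and DIO1 was at background on all of them. SELENOP2, the other selenoprotein P gene of birds, read 2.89 and 2.39 in Ov GDR, 7.57 and 7.51 in F1 GDR, and 8.53 and 8.0 in F1 GCs. Against the Ov GDR background the F1 GCs level was at least 34.8-fold higher (adjusted p = 0.00335), and its difference of -0.72 between F1 GDR and F1 GCs did not pass the test (SE 0.35, adjusted p = 0.419). DIO3, a deiodinase that inactivates thyroid hormone, rose over its Ov GDR mean by 3.71 in F1 GCs (adjusted p = 0.00271) and by 3.97 in F1 GDR (adjusted p = 0.00795), as did GPX3, a secreted glutathione peroxidase, by 3.71 and 4.11.

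Between F1 GDR and F1 GCs, F1 GCs had the higher level for 2 of the 31 genes and F1 GDR for 0 (3.09% and 2.10% of all probe sets). The median difference was 0.01. SECISBP2L, a relative of the factor that binds the selenocysteine insertion element, read 6.20 and 6.02 in F1 GDR and 8.17 and 8.46 in F1 GCs (log2 difference -2.20, SE 0.29, adjusted p = 0.0327). SELENOS, a selenoprotein of the endoplasmic reticulum, read 7.96 and 7.95, and 9.70 and 9.83 (log2 difference -1.81, SE 0.20, adjusted p = 0.0285). For both genes the groups did not overlap. LRP8 had means from 2.72 in F1 GDR to 2.86 in Ov GDR, close to background in each.

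HHIPL2 had 1 relative with a similar direction and 1 close to background. HHIPL1 read 2.96 and 3.51 in Ov GDR, 4.76 and 6.41 in F1 GDR, and 8.01 and 8.28 in F1 GCs, so that the F1 GCs level was 30.1-fold that of Ov GDR (adjusted p = 0.0130), while its difference of -2.56 between F1 GDR and F1 GCs had an adjusted p of 0.107. HHIP itself stayed between 2.83 and 3.04. Calls among 14 measured genes of the HHIP family and the Hedgehog pathway lay near the shares of all probe sets. In F1 GCs 2 were above their Ov GDR level (8.54% of all probe sets). For 1 the F1 GCs level was higher than that of F1 GDR (3.09%). The latter was GLI3, a transcription factor of the pathway, with 3.40 and 2.95 in F1 GDR and 6.23 and 6.03 in F1 GCs (log2 difference -2.95, SE 0.39, adjusted p = 0.0332).

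The machinery of RNA polymerase III had more calls opposite to BDP1 than with it. Of 27 measured genes, F1 GCs exceeded Ov GDR for 1 and fell below it for 6 (8.54% and 6.51% of all probe sets). The median log2 difference was -0.53 against -0.07 over all probe sets. BRF1 and BRF2, which share the TFIIIB complexes with BDP1, had means between 3.39 and 3.94 in all groups and no call. POLR3A, the largest subunit of the polymerase, read 11.88 and 11.07 in Ov GDR, 10.06 and 9.88 in F1 GDR, and 8.20 and 7.73 in F1 GCs. The Ov GDR level was thus 11.4 times that of F1 GCs (adjusted p = 0.00686), and F1 GDR exceeded F1 GCs by 2.0 on the log2 scale (SE 0.33, adjusted p = 0.0478), opposite to BDP1. POLR2L, a small subunit shared by the polymerases, had an F1 GDR level above that of F1 GCs by 1.33 (adjusted p = 0.0323), and GTF3C5, a subunit of TFIIIC, differed the other way (-1.33, adjusted p = 0.0438).

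The nearest relatives of LRRN4 and FAM189A2 were not called higher in F1 GCs. LRRN1 and LRRN2 were at background on all 6 arrays, and LRRN3 read between 3.10 and 3.84. Of 10 measured genes of the LRRN family and similar leucine-rich repeat proteins, 1 was higher in F1 GCs than in F1 GDR (3.09% of all probe sets). This was FLRT3, with group means of 2.60 in F1 GDR, at background, and 4.05 in F1 GCs (at least 2.30-fold, adjusted p = 0.0265). FAM189A1 had its highest mean in Ov GDR (4.16) and its lowest in F1 GCs (3.11), and did not pass the test in any comparison. Of its 8 measured relatives and partners, NEDD4L, a ubiquitin ligase related to ITCH, was higher in F1 GDR (mean 6.08) than in F1 GCs, where both arrays were at background (at least 9.90-fold, adjusted p = 0.0315). CXCL12, the ligand of a receptor that the human counterpart of FAM189A2 helps to remove, had an F1 GCs level at least 39.9-fold higher than the Ov GDR background (adjusted p = 0.00324), and F1 GDR lay between at 6.81 and 7.40. The 7 measured genes listed for NELL2 were ROBO receptors, the receptor ROS1 and SLIT genes. Among them F1 GDR had the higher level for 1 (2.10% of all probe sets). It was SLIT3, a ligand of ROBO receptors, with 6.53 and 6.77 in F1 GDR and 3.48 and 2.59 in F1 GCs (log2 difference 3.61, adjusted p = 0.0347). A single call among 7, 8 or 10 genes lies near the background.

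**Figure D5:**
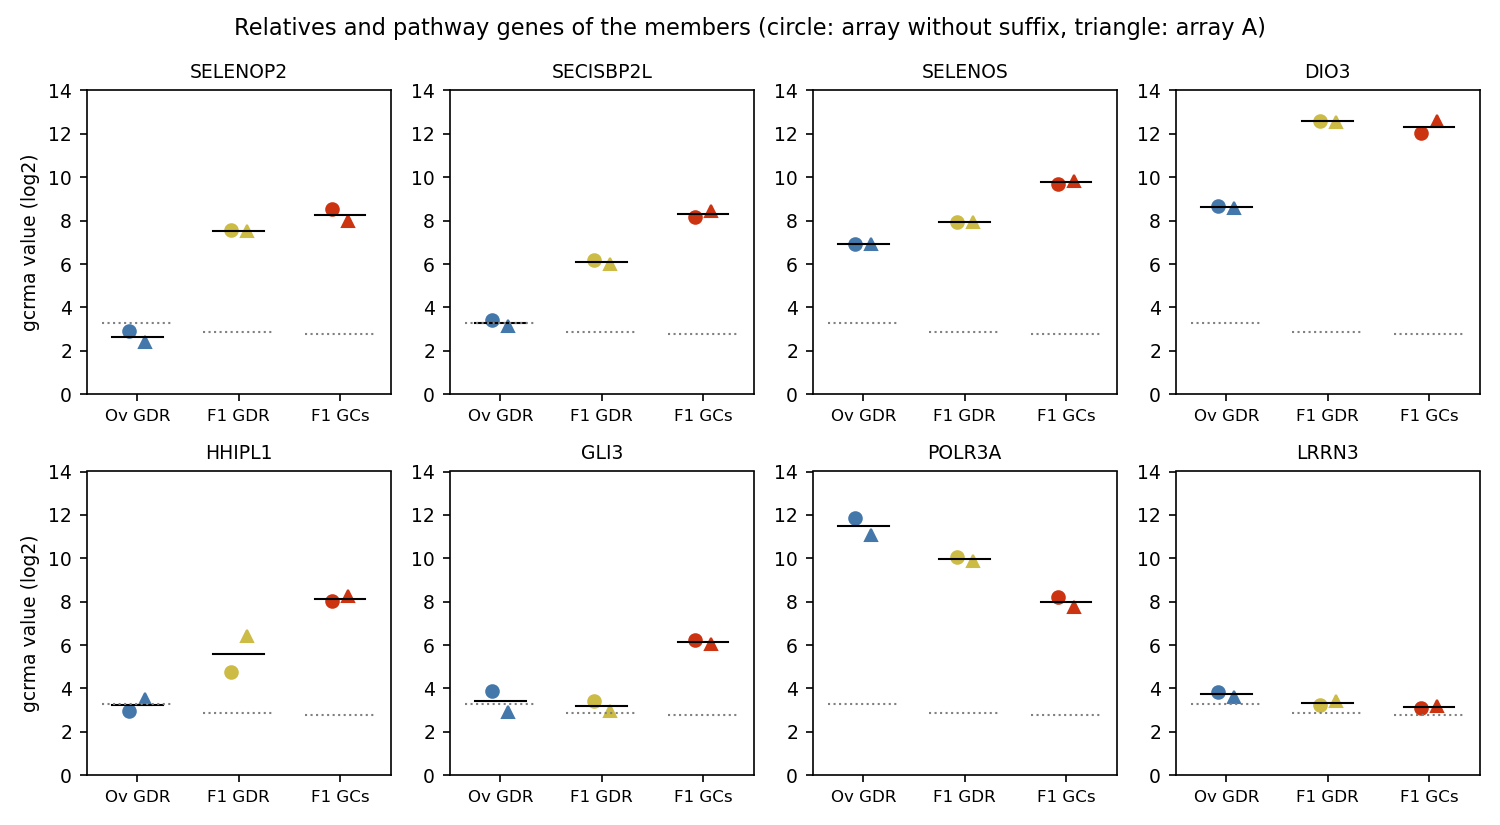
Log2 gcrma values of SELENOP2, SECISBP2L, SELENOS, DIO3, HHIPL1, GLI3, POLR3A and LRRN3 on the first array (circle) and array A (triangle) of each group, with group means as black lines and background dotted. SELENOP2 and DIO3 do not pass the test between F1 GDR and F1 GCs, SECISBP2L, SELENOS and GLI3 are higher in F1 GCs, POLR3A falls from Ov GDR to F1 GCs and LRRN3 stays between 3.10 and 3.84.

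Markers of the cell types a sample could hold were read beside these results. Summed over 24 measured granulosa markers, the linear signal was between 5614 and 5892 in Ov GDR, 20018 and 22701 in F1 GDR, and 46814 and 49637 in F1 GCs. The sum had the same order as the members, but single markers did not all follow it. In Ov GDR most of the sum came from FOXL2, which had its highest mean there. In F1 GCs 12 of the 24 exceeded their Ov GDR level and 3 fell below it (8.54% and 6.51% of all probe sets). The 3 were FST, HSD17B1 and FOXL2, a transcription factor of granulosa cells, whose mean went from 11.86 in Ov GDR over 11.42 (F1 GDR) to 10.93 (F1 GCs, adjusted p = 0.0299 between F1 GCs and Ov GDR). FSHR, the receptor of follicle-stimulating hormone, also had its highest mean in Ov GDR (7.84), and did not pass the test. LHCGR, the receptor of luteinizing hormone, had mean log2 values of 6.36, 10.94 and 11.73, and CYP11A1 of 2.94, 10.43 and 11.95 in the same order. Of the granulosa markers 4 were higher in F1 GCs than in F1 GDR and 2 were lower (3.09% and 2.10% of all probe sets). The 4 were led by RLN3 and by NR5A2, a nuclear receptor that activates genes of steroid synthesis (log2 difference -4.77, adjusted p = 0.0310). The 2 were HSD17B1, an enzyme of steroid reduction, higher in F1 GDR by 5.60, and FST, which binds activin, by 3.23. Of 13 oocyte markers 5 had a higher and 0 a lower level in F1 GDR compared with F1 GCs (2.10% and 3.09% of all probe sets). The summed signal of the 13 was between 768 and 874 in F1 GDR and 92.8 and 110 in F1 GCs. Among these, DAZL, which binds RNA in germ cells, was higher by 5.08, BTG4, a factor in the clearance of maternal mRNA, by 5.01, and the egg coat gene ZP2 by 3.63. The oocyte markers ZP4, BMP15, DDX4 and TDRD9 were at background on every array.

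Most markers of theca and blood lay close to background, with exceptions. The 13 theca and stroma markers summed to between 110 and 133 in Ov GDR and 134 and 209 in F1 GDR. In F1 GCs the sum was between 135 and 148. Between both F1 groups 0 were called, against 3.09% (higher in F1 GCs) and 2.10% (higher in F1 GDR) of all probe sets. CYP17A1, an enzyme of the theca, had means from 2.46 to 2.54. COL1A2, a collagen chain of stroma, read 2.91 and 2.32 in Ov GDR, 5.31 and 6.63 in F1 GDR, and 5.26 and 5.07 in F1 GCs (adjusted p = 0.0399 between F1 GCs and Ov GDR). PDGFRB of the same list went the other way, with means of 5.14 (Ov GDR), 4.77 (F1 GDR) and 3.82 (F1 GCs). It did not pass the limma test between F1 GCs and Ov GDR (adjusted p = 0.0756). The 13 blood and endothelium markers summed to between 98.2 and 115 in Ov GDR, 430 and 477 in F1 GDR, and 693 and 1043 in F1 GCs, most of it from CD74, a chaperone of antigen presentation, with means of 2.39, 8.39 and 9.55. PTPRC, the marker that defines white blood cells, had means from 2.52 to 2.59, and VWF of the endothelium from 2.63 to 2.71. The hemoglobin genes HBA1 and HBAD read 5.76 and 3.67 on F1 GDR A, and between 2.30 and 2.55 on the other 5 arrays. F1 GDR A was also the lower F1 GDR array for the brightest probe set of every member except NELL2. The 8 markers of oviduct and surface epithelium summed to between 4453 and 7407 in Ov GDR, 3406 and 5238 in F1 GDR, and 702 and 901 in F1 GCs. Most of the sum came from EPCAM, an adhesion molecule, for Ov GDR (mean 12.41) and F1 GDR (11.93). In F1 GCs, EPCAM had a mean of 5.89 from arrays far apart, at 7.64 and 4.14. There the sum came mostly from the gene TF (mean 9.35). OVAL, SPINK7, AVD and KRT7 were at background on every array, and CDH1 and MSLN had group means of at most 3.67. The paper lists this EPCAM probe set, under another name, among genes higher in either germinal disc region than in granulosa cells. By limma here, EPCAM did not pass between F1 GDR and F1 GCs (adjusted p = 0.0680). It did pass between F1 GCs and Ov GDR (adjusted p = 0.0324). The part of cells with COL1A2, PDGFRB, hemoglobin, CD74 or EPCAM in the members' values was not tested.

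The genes next to the members on the chromosomes were read as well. On the RefSeq map of the assembly GRCg7b the nearest protein-coding gene on either side was taken for each member, which gave 14 neighbours, 10 of them with a probe set. By limma 0 of the 10 differed between F1 GCs and Ov GDR (4 had an unadjusted p under 0.05) and 0 between F1 GDR and F1 GCs (1 had). Of all probe sets tested, 8.54% and 6.51% were called in the former comparison (above and below Ov GDR), and 3.09% and 2.10% in the latter (above and below F1 GDR), so a count of 0 among 10 lies near the background. The log2 differences between F1 GCs and Ov GDR ran from -1.46 for MCCC2, next to BDP1, to 1.5 for ALKBH3, next to C11orf96. The members' own large differences here follow from their choice, so they are no measure for the neighbours. TAF1A and DUSP10 on either side of HHIPL2 had differences of 0.40 and -0.51.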

How the data were processed

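Total RNA of the 6 pools was hybridized to Affymetrix Chicken Genome Arrays. The authors read the raw files into R and normalized them with gcrma, and the deposited log2 values, 1 per probe set, entered every test as they are. F1 GDR A has only 2 decimals, and no version of R or gcrma is named in the labels or the methods. After 96 Affymetrix controls had been left out, 38439 probe sets were tested, with no filter on signal. Symbols came from the platform annotation.

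The contrast of F1 GDR and F1 GCs was fitted in R 4.3.3 by limma 3.58.1 over all 6 arrays (3 residual and 1.66 prior degrees of freedom, mean-variance trend, two-sided). Calls were made at a Benjamini-Hochberg adjusted p under 0.05 over all probe sets. The methods' package, varmixt, was replaced by limma, which also shares variance between probe sets, and was rebuilt as an alternative with 6 variance subgroups. The methods adjusted p-values by Bonferroni, whereas the rebuilt mixture used Benjamini-Hochberg like the other settings. The methods were tested on simulated data. The number of arrays limits the precision, and the p-values measure the spread between 2 pools per group.

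The members and lists were chosen with earlier results of these data known. Named are all probe sets of the members, of each list up to 3 called genes with the largest difference between F1 GDR and F1 GCs, relatives of the members, and the 2 genes nearest in profile. FST, SELENOP2, DIO1, DIO3, GPX1, GPX3, LRP2, LRP8, TXNRD3, COL1A2, FOXL2, FSHR, HBA1, HBAD, CXCL12, LHCGR, CYP11A1 and the marker genes at background were named after their values had been seen. So were TF, CDH1, MSLN and PDGFRB. A gene in a list is represented by its brightest probe set. A planned search for promoter motifs was not made, since no promoter sequences were used here. A percent of the F1 GCs level is 2 to the power of the log2 difference, times 100.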

Additional observations from a re-analysis of the deposited data

How the results depend on the processing

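The 5 calls of member probe sets as higher in F1 GCs became 2 with no mean-variance trend and 3 on only the 4 arrays compared. They became 8 when probe sets with group means all under 4 were left out. There were 7 when the arrays were set to one mean over the reporter genes (ACTB, EEF1A1, GAPDH). The variance mixture rebuilt from the methods gave 8, with Benjamini-Hochberg in place of the methods' Bonferroni correction. Both the t-test on each probe set's own variance and the suffix A as a replicate block gave 0. Fewer were called with any array left out, and every member call was lost without any single F1 array. Such a fit leaves a single array in a group. No setting called a member higher in F1 GDR. Over all probe sets, the 1187 higher in F1 GCs and 809 higher in F1 GDR became 1801 and 1562 on the 4 arrays, 2013 and 1729 with the filter, 1354 higher in F1 GDR with the reporter genes, 4067 and 3519 by the mixture, 0 and 2 by the t-test, and 0 and 0 with the block. With left-out arrays they ranged from 0 to 1792 and from 0 to 1531. Over all probe sets, the differences of array A from the first array had r of -0.15, 0.17 and -0.15 between pairs of groups. The labels do not say whether pools with the same suffix shared hens or a batch. An r over all probe sets, many of them at background, cannot settle this. A scaling to equal means of the 27 hybridization controls, chosen after seeing the data, moved the median difference of all probe sets to -0.57 and gave 12 members and 23857 probe sets higher in F1 GCs, and 1175 higher in F1 GDR. The brightest probe sets then stood at 17.7% to 59.5% of the F1 GCs level. Without an F1 GDR array their median was 31.7% or 58.3%, in place of 44.3%. The cause of these changes was not tested.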
